A study of Mus musculus with 21 samples.

Results

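Left ventricular RNA of mice with the R403Q mutation was compared with that of wild-type littermates, with the mice of both diets in 1 model. All 21 libraries of the study entered the comparison, 11 from R403Q mice and 10 from WT mice, and each library came from its own mouse. The R403Q mice carried the mutation in the heterozygous state at the Myh6 locus (Myh6+/R404Q in the numbering of the mouse protein), the WT mice carried no mutant allele, and all mice were male, of the strain 129S6/SvEv and 12 weeks old. They had eaten the control diet (CD; WT-CD, n = 5, and R403Q-CD, n = 7) or that diet with empagliflozin (EMPA), an inhibitor of the sodium-glucose cotransporter SGLT2, at 0.15 mg per g of diet (WT-EMPA, n = 5, and R403Q-EMPA, n = 4). The methods give 2 weeks of diet before the hearts were taken for RNA, whereas the labels give 16 weeks. The 4 cages with CD held both genotypes, as did 2 of the 3 cages with EMPA, and no cage held both diets, so that cage and diet cannot be told apart. The model for each gene held a term for genotype and a term for diet, and the genotype term is reported here as a log2 fold change of R403Q over WT, with its standard error (SE). It tells what the genotypes differ in when any shift between the diets has been taken out.

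Myh6 encodes the α-myosin heavy chain, the motor of the thick filament in the adult mouse ventricle. The mutation changes an arginine in the motor domain and corresponds to a mutation of MYH7 that causes hypertrophic cardiomyopathy (HCM), in which the ventricular wall thickens, relaxation is impaired, fibrosis develops and arrhythmia can follow. A stressed ventricle typically makes more natriuretic peptides and matrix proteins and less of the transcripts for oxidative metabolism and for repolarizing currents. Mutant and WT alleles of Myh6 are counted together in these data.

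Totals ran from 23491535 to 43539684 counts per mouse in R403Q (median 31170736) and from 29722396 to 40600094 in WT, and 3 counts, taken as the floor, correspond to between 0.0689 and 0.128 CPM (counts scaled to a common library size), which covers counting error only. Of 55450 genes in the table, 17309 had enough counts to be tested. One library stood apart: in R403Q-CD mouse 2, Myh6 took 1.95% of all counts, against 3.09 to 5.19% in the other mice, and the summed cardiomyocyte markers came to 73863 CPM, against 95306 to 124260 CPM in the others. For many of the genes and lists in which this mouse had the most extreme value, the value without it is given as well.

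Many transcripts differed by a little between the genotypes. At an adjusted p under 0.05 (edgeR, Benjamini-Hochberg over all tested genes), 2144 of 17309 genes were called, which is 12.4% of those tested. Of these, 1234 (7.13% of the tested genes) were higher and 910 (5.26%) lower in R403Q. The median size of a called change was 0.31 on the log2 scale, 1618 of the called genes changed by less than 0.5, and 130 by more than 1, of which 119 were higher and 11 lower. The median over all tested genes was 0.01. Without R403Q-CD mouse 2 the count was 2225, with 1153 higher and 1072 lower. It fell to 1258 without WT-CD mouse 1, to 1314 without WT-CD mouse 4, to 1406 without WT-EMPA mouse 1 and to 1405 without R403Q-EMPA mouse 1. Scaling to library size alone gave 2139 higher and 492 lower genes, so that 81.3% of the calls were higher in R403Q in place of 57.6%, and it moved the median of all genes to 0.07. With cage as a factor 2111 genes were called, and these held 71.8% of the 2144.

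Myh6 itself was lower in R403Q hearts. Its level ran from 40424 to 54667 CPM in WT (median 43431) and from 17530 to 40980 CPM in R403Q (median 33573). The groups overlapped by 2 R403Q mice only, R403Q-CD mouse 3 and R403Q-EMPA mouse 4. The genotype term was -0.39 (SE 0.114, adjusted p = 0.0315), with -0.39 in the CD mice and -0.38 in the EMPA mice. The call was lost without WT-CD mouse 1 or 4, WT-EMPA mouse 1 or R403Q-EMPA mouse 1 or 2, without a filter on low counts and with limma on the variance-stabilized values. A missense allele need not alter its transcript level, so that this value does not check the genotype labels. Myh7, the slow β-myosin heavy chain of the fetal ventricle, had a value of -0.28 (SE 0.107, adjusted p = 0.0849), and was called by DESeq2 and without WT-EMPA mouse 2.

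Of the fetal and hypertrophy markers, Nppa and Csrp3 rose, and the others did not pass the test. Of 15 tested members, 2 were called higher and 0 lower, 13 had a positive and 2 a negative sign, and the median log2 fold change was 0.47, or 0.23 without R403Q-CD mouse 2. In the CD mice alone this median was 0.69 and in the EMPA mice alone 0.02, a difference that was not tested for the list. Without WT-CD mouse 1 the count called was 0. Nppa, which encodes atrial natriuretic peptide, ran from 238 to 746 CPM in WT (median 481) and from 429 to 10996 CPM in R403Q (median 973). R403Q-CD mouse 2, at 10996 CPM, and R403Q-CD mouse 5, at 3826 CPM, lay far above the other R403Q mice, which reached 1438 CPM, and 9 of 11 R403Q mice lay above every WT mouse. Nppa rose by 1.74 (SE 0.524, adjusted p = 0.034), or by 1.19 (adjusted p = 0.0152) without R403Q-CD mouse 2. In the EMPA mice alone its value was 0.42 (adjusted p = 0.397). That mouse also had the highest sum of the atrial markers of all mice, 690 CPM, and the part of atrial tissue was not tested. The call was lost when any WT-CD mouse or WT-EMPA mouse 1 was left out. Csrp3, a Z-disc mechanosensor, rose by 0.26 (SE 0.0721, adjusted p = 0.0236), and this call was lost without WT-CD mouse 1. Nppb, which encodes the B-type peptide, had 0.67 (SE 0.306, adjusted p = 0.142), Acta1, skeletal α-actin, 1.07 (SE 0.459, adjusted p = 0.122) and Ankrd1, a stretch-responsive titin partner, 0.43 (SE 0.244, adjusted p = 0.239) on the log2 scale. Without R403Q-CD mouse 2 these values were 0.42, 0.53 and 0.23, with adjusted p of 0.219, 0.257 and 0.411. Nppb was called without WT-EMPA mouse 3. Among natriuretic peptide processing and receptors, Npr2, the receptor for C-type natriuretic peptide, fell by 0.15 (SE 0.0399, adjusted p = 0.0169), a call lost with scaling to library size alone, and no member other than Nppa and Npr2 was called out of 11.

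Some genes separated the genotypes mouse by mouse. In 24 genes (0.139% of those tested) every R403Q mouse lay above every WT mouse, and in 22 (0.127%) every R403Q mouse lay below. Scaling to library size alone gave more genes above and fewer below, with counts given under the dependence on processing. Those above included genes of iron and peroxide handling (Ftl1, Trf, Gpx1), a translation factor (Eef1a1) and genes of myeloid cells (Fcgr3, Cd300c2, Fgl2). Those below included genes of calcium entry and excitation (Cacna1g, Jph2, Chrm2), cell adhesion (Cxadr), the growth hormone receptor (Ghr), a muscle light chain kinase (Mylk4) and mitochondrial carboxylases (Pcca, Mccc2). These genes are named here because they did not overlap, and so their separation is not a further test.

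Sept6 and Epdr1 had the smallest adjusted p among the higher genes with an established name. Sept6 (ENSMUSG00000050379, chrX:36911326-36991794, minus strand, GRCm38), a septin of the cytoskeleton, ran from 8.81 to 12.7 CPM in WT and from 13.96 to 18.5 CPM in R403Q. Epdr1 (ENSMUSG00000002808, chr13:19591706-19619927, minus strand), a secreted ependymin relative, ran from 17.5 to 22.3 CPM in WT and from 23.3 to 30.5 CPM in R403Q. Neither gene overlapped, and their log2 fold changes were 0.55 (SE 0.0583) and 0.42 (SE 0.0453), each with an adjusted p of 2.06e-05. In Htatip2 (chr7:49759115-49773975, plus strand) the WT mice reached 19.8 CPM and the R403Q mice began at 21.2 CPM, a rise of 0.44 on the log2 scale (SE 0.0486, adjusted p = 3.14e-05). In the plot of the leading genes by mouse these genes separate in both diets, which follows from their lack of overlap over all mice.

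**Figure D1:**
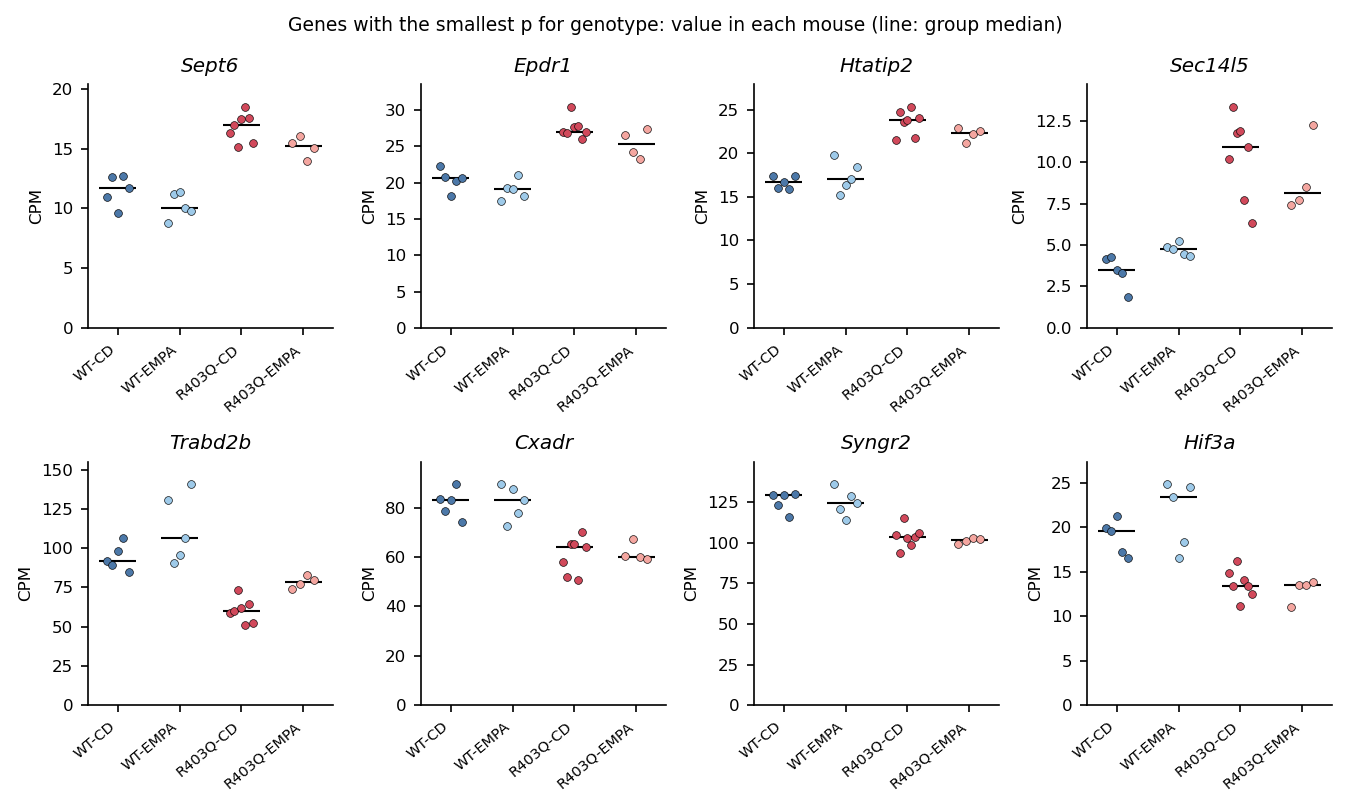
CPM of 8 genes in each mouse, by group; points are mice and lines are group medians. In Sept6, Epdr1, Htatip2 and Sec14l5 the 11 R403Q mice lie above the 10 WT mice, in Trabd2b, Cxadr and Hif3a they lie below, and in Syngr2 1 R403Q mouse at 115 CPM touches the range of WT, which begins at 114 CPM.

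Larger steps among the leading higher genes were found at low and at higher levels. Sec14l5, of a family of lipid transfer proteins, had medians of 4.32 CPM in WT and 10.2 CPM in R403Q and rose by 1.30 (SE 0.161, adjusted p = 0.000153). Rp1, a microtubule protein best known from photoreceptors, had medians of 2.26 and 6.70 CPM and rose by 1.64 (SE 0.213, adjusted p = 0.000177), and its groups overlapped. Aqp8, a water channel, ran from 0.723 to 2.36 CPM in WT and from 2.47 to 4.54 CPM in R403Q and rose by 1.37 (SE 0.188, adjusted p = 0.000283). At higher levels, Cpxm2, a carboxypeptidase-like secreted protein, had medians of 33.1 and 86.9 CPM and rose by 1.45 (SE 0.204, adjusted p = 0.000334). Ftl1, the ferritin light chain that stores iron, did not overlap between 111 to 143 CPM in WT and 147 to 194 CPM in R403Q and rose by 0.45 (SE 0.0583, adjusted p = 0.000171). Ftl1-ps1 rose by 0.50 (SE 0.0661, adjusted p = 0.000229), but it resembles Ftl1 closely, so that its counts and those of Ftl1 are uncertain. Itgb1bp1, a partner of β1 integrin, rose by 0.37 (SE 0.052, adjusted p = 0.000334).

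The leading lower genes included membrane and signalling proteins. Trabd2b (chr4:114406724-114615098, plus strand), a membrane protease that inactivates Wnt ligands, ran from 85.0 to 141 CPM in WT and from 51.0 to 82.6 CPM in R403Q and fell by 0.59 (SE 0.0757, adjusted p = 0.000171). Cxadr (chr16:78301489-78359774, plus strand), an adhesion protein of the intercalated disc, ran from 72.4 to 89.6 CPM in WT and from 50.6 to 70.1 CPM in R403Q and fell by 0.42 (SE 0.0576, adjusted p = 0.000283). Neither gene overlapped between the genotypes. Hif3a, a hypoxia-inducible factor subunit that restrains the others, fell by 0.58 (SE 0.0836, adjusted p = 0.000427) and Bcl9, a coactivator of β-catenin, by 0.35 (SE 0.0508, adjusted p = 0.000468), both without overlap. Syngr2, a vesicle membrane protein, fell by 0.29 (SE 0.0393, adjusted p = 0.000283), Sorcs2, a sorting receptor, by 0.75 (SE 0.113, adjusted p = 0.00064) and Limch1, an actomyosin regulator, by 0.41 (SE 0.0624, adjusted p = 0.00064), and in each of these 1 R403Q mouse, R403Q-CD mouse 3 or, for Limch1, R403Q-EMPA mouse 4, lay within the range of WT. The calls of all 20 leading genes held in each of 11 other settings and in each of 21 fits without 1 mouse. These genes were chosen by the smallest p in the same mice, so that this is not a further test.

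Several of the largest higher changes at a mean of 1 CPM or more depended in size on a few R403Q mice. Tnc, which encodes the matrix protein tenascin-C, ran from 0.241 to 1.45 CPM in WT (median 0.676) and from 0.636 to 48.5 CPM in R403Q (median 1.56). The value of 48.5 CPM belonged to R403Q-CD mouse 2, R403Q-EMPA mouse 2 had 7.25 CPM and R403Q-CD mouse 5 had 4.53 CPM, and 5 of the 11 R403Q mice lay within the range of WT. Tnc changed by 2.95 on the log2 scale (SE 0.746, adjusted p = 0.0158), or 1.64 (adjusted p = 0.0128) without R403Q-CD mouse 2 and 1.57 with DESeq2. Over the other settings its adjusted p ran from 0.00515 to 0.0957, and the call was lost with limma on the variance-stabilized values and with cage as a random effect. The same mice led in Timp1, a metalloproteinase inhibitor, with 75.9, 13.5 and 9.92 CPM in R403Q-CD mouse 2, R403Q-EMPA mouse 2 and R403Q-CD mouse 5 against at most 2.36 CPM in WT. Timp1 rose by 2.41 (SE 0.669, adjusted p = 0.0241), or 1.32 without R403Q-CD mouse 2, and the call was lost without WT-CD mouse 1 or R403Q-EMPA mouse 2 and in the same pair of settings as that of Tnc. Nmrk2, a kinase that makes the NAD+ precursor nicotinamide mononucleotide, had medians of 3.30 and 9.18 CPM and rose by 2.56 (SE 0.709, adjusted p = 0.0241), or 1.58 without R403Q-CD mouse 2. Vgll2, a cofactor of TEAD transcription factors in muscle, rose by 2.54 (SE 0.488, adjusted p = 0.00386), or 2.50 without that mouse. The call of Nmrk2 was lost without WT-CD mouse 1 or 4 or R403Q-EMPA mouse 2. Sizes were smaller with limma on the variance-stabilized values, at 0.97 for Tnc, 0.93 for Timp1, 1.47 for Nmrk2, 0.98 for Vgll2 and 0.82 for Aqp8.

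The largest lower changes held in every R403Q mouse for a pair of genes. Lgi1, a secreted protein known from synapses, ran from 5.87 to 10.6 CPM in WT and from 0.248 to 4.02 CPM in R403Q and fell by 1.54 (SE 0.261, adjusted p = 0.00161). Mylk4, a myosin light chain kinase of striated muscle, ran from 231 to 396 CPM in WT (median 326) and from 12.0 to 208 CPM in R403Q (median 142) and fell by 1.27 (SE 0.274, adjusted p = 0.00703). R403Q-CD mouse 2 had the lowest value of both, and neither gene overlapped. Colq, the collagen tail of acetylcholinesterase, fell by 1.17 (SE 0.294, adjusted p = 0.0149) and Shisa6, an auxiliary protein of glutamate receptors, by 1.12 (SE 0.218, adjusted p = 0.00392), both from medians under 3 CPM in WT. With limma on the variance-stabilized values these were -0.62 and -0.52.

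Genes were then described in lists of known function, each by its called members and by its median, which can be read against 7.13% higher and 5.26% lower and against a median of 0.01 over all tested genes. A gene may be in more than 1 list. In bulk tissue, fewer cells of a type and less RNA per cell cannot be told apart, and in R403Q mice the 10 cardiomyocyte markers had a median log2 fold change of -0.11, with 1 (Myh6) called lower and 0 higher. Scaling to library size alone shifts all medians upward and turned none of the lower lists described below to a positive median except creatine and phosphotransfer, muscle ubiquitin ligases and autophagy, and the conduction system markers.

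**Figure D2:**
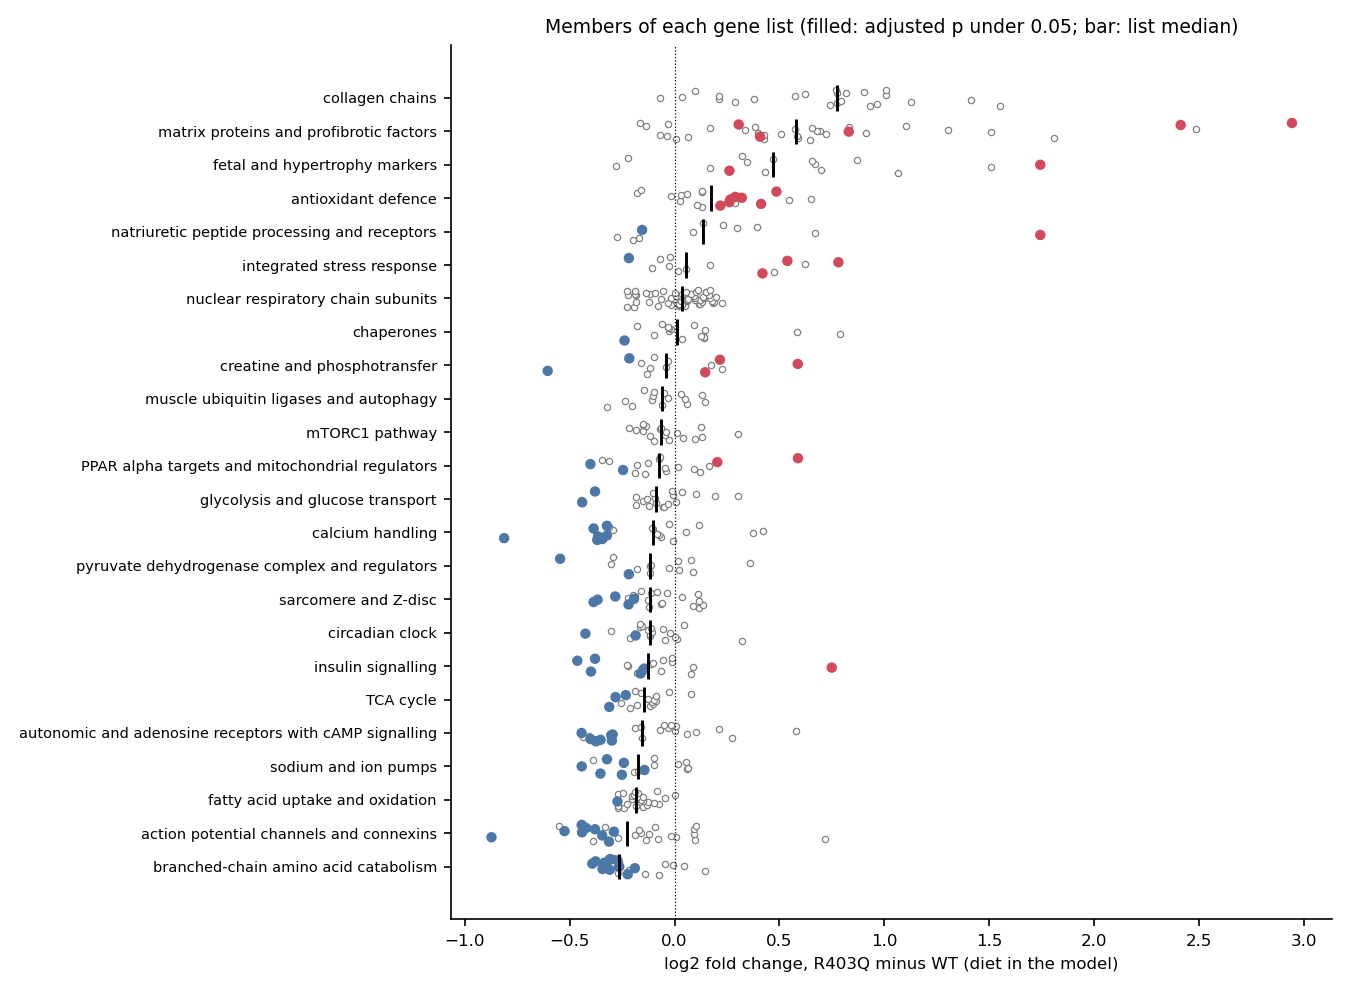
Log2 fold change of R403Q over WT for each tested member of 24 gene lists; filled points passed an adjusted p of 0.05 (red higher, blue lower), open points did not, and the bar is the list median. Collagen chains have the highest median (0.77) with 0 filled points, and branched-chain amino acid catabolism has the lowest (-0.26) with 11.

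Several ion channel genes were lower in R403Q. Among action potential channels and connexins, 9 of 28 tested members (32.1%) were called lower and 0 higher, with a median of -0.23. The inward rectifiers Kcnj12 (fell by 0.52, SE 0.0808, adjusted p = 0.000813) and Kcnj5, which carry the resting and the acetylcholine-activated potassium current, were among them, as was the background channel Kcnk3 (fell by 0.42, SE 0.078, adjusted p = 0.00322). The subunits of the ATP-sensitive potassium channel, Kcnj11 (fell by 0.29, adjusted p = 0.0155) and Abcc8 (fell by 0.31, adjusted p = 0.0253), were called lower, and so was Kcnip2 (fell by 0.44, adjusted p = 0.031), the auxiliary subunit of the transient outward current. Hcn4, the pacemaker channel, ran from 7.49 to 16.0 CPM in WT (median 10.9) and from 3.66 to 9.91 CPM in R403Q (median 5.57) and fell by 0.87 (SE 0.166, adjusted p = 0.0036). The connexins Gja1, Gja5 and Gjc1 had values between -0.14 and 0.10, and none was called. Markers of the conduction system moved as follows beside Hcn4: Irx3 fell by 0.67 (adjusted p = 0.0142), the other 7 of 9 were not called, and the median was -0.04, or 0.02 with scaling to library size alone. Whether the share of conduction tissue played a part was not tested.

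Calcium handling had 7 of 20 members (35%) called lower and 0 higher, with a median of -0.10. Cacna1g, the T-type calcium channel, ran from 32.6 to 57.2 CPM in WT (median 40.6) and from 12.6 to 32.3 CPM in R403Q (median 22.3), without overlap, and fell by 0.81 (SE 0.117, adjusted p = 0.000438). Jph2, which holds the sarcoplasmic reticulum to the T-tubule, ran from 457 to 574 CPM in WT and from 294 to 457 CPM in R403Q, also without overlap before rounding, and fell by 0.39 (SE 0.0648, adjusted p = 0.00149). The subunits of the L-type channel were lower together: Cacna2d1 fell by 0.36 (SE 0.068, adjusted p = 0.00339), Cacna1c by 0.34 (adjusted p = 0.0363) and Cacnb2 by 0.32 (adjusted p = 0.0405). Slc8a1, the sodium-calcium exchanger, fell by 0.32 (SE 0.0864, adjusted p = 0.0207) and Atp2a2, the SERCA2 pump, by 0.37 (adjusted p = 0.0344). Ryr2, the release channel, had -0.31 (adjusted p = 0.0797), and Pln, the inhibitor of SERCA2, had -0.11 (adjusted p = 0.425). The count of 7 dropped to 3 without WT-CD mouse 4, and to 4 when a trend with exonic length was taken out, and Slc8a1 was among the calls lost each time.

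Some receptors that speed or slow the heart were called lower. Of 23 tested autonomic and adenosine receptors with cAMP signalling, 7 (30.4%) were called lower and 0 higher, with a median of -0.16. Chrm2, the muscarinic M2 receptor of the vagus, ran from 178 to 231 CPM in WT (median 190) and from 111 to 173 CPM in R403Q (median 146), without overlap, and fell by 0.44 (SE 0.0679, adjusted p = 0.000791). Adora1, the adenosine A1 receptor, fell by 0.40 (SE 0.0755, adjusted p = 0.00344) and Adrb1, the β1 adrenergic receptor, by 0.29 (SE 0.0752, adjusted p = 0.0162). The adenylyl cyclases Adcy5 (fell by 0.37, SE 0.0586, adjusted p = 0.000849), Adcy6 (fell by 0.30, adjusted p = 0.0254) and Adcy9 (fell by 0.35, adjusted p = 0.0334) were lower as well. The G protein gene Gnas, with 0.00, was not called. Without WT-CD mouse 1 the count was 4.

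Transcripts for sodium and ion pumps were lower in 6 of 15 tested members (40%) and higher in 0, with a median of -0.17. Among them were, besides Slc8a1, the bicarbonate exchanger Slc4a3, which fell by 0.24 (adjusted p = 0.0254), and the plasma membrane calcium pump Atp2b1, which fell by 0.14 (SE 0.0385, adjusted p = 0.0206). The call of Atp2b1 was lost with scaling to library size alone and with the length trend taken out. Slc5a1, which encodes SGLT1, had -0.39 (adjusted p = 0.204). Slc5a2, which encodes SGLT2, the target of EMPA, had too few counts to be tested. Without WT-CD mouse 4 the count was 3.

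In the sarcomere and Z-disc, 5 of 22 members (22.7%) were called lower and 0 higher, with a median of -0.12. Besides Myh6, these were the Z-disc proteins Ldb3 (fell by 0.22, SE 0.0498, adjusted p = 0.00921) and Nebl (fell by 0.28, SE 0.0698, adjusted p = 0.014), the cardiac light chain kinase Mylk3 (fell by 0.37, SE 0.0934, adjusted p = 0.0161) and the M-band protein Myom1 (fell by 0.19, adjusted p = 0.0331). Some other members of this list in which HCM mutations are found were not called. Mybpc3 had -0.06 (adjusted p = 0.619), Tnnt2 -0.11 (adjusted p = 0.349), Tnni3 -0.04 (adjusted p = 0.848), Tpm1 -0.09 (adjusted p = 0.542) and Actc1 0.12 (adjusted p = 0.463). The count was 3 without WT-CD mouse 1 or 4, WT-EMPA mouse 1 or R403Q-EMPA mouse 1.

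Branched-chain amino acid catabolism was the list with the largest share of lower members. Of 23 tested genes, 11 (47.8%) were called lower and 0 higher, 21 had a negative sign, and the median was -0.26. Called members stood at successive steps of the pathway: Bckdha and Bckdhb, subunits of the branched-chain ketoacid dehydrogenase, its kinase Bckdk, the acyl-CoA dehydrogenases Ivd and Acadsb, Mccc2 of the leucine branch, Hibadh of the valine branch, and Pcca, Pccb and Mut, which carry propionyl-CoA into the TCA cycle. Pcca ran from 96.2 to 115 CPM in WT (median 103) and from 48.1 to 92.6 CPM in R403Q (median 87.7), without overlap, and fell by 0.31 (SE 0.0801, adjusted p = 0.0172). Mccc2, also without overlap, ran from 83.9 to 101 CPM in WT and from 35.7 to 83.4 CPM in R403Q and fell by 0.38 (SE 0.1, adjusted p = 0.0203). R403Q-CD mouse 2 was the lowest in Pcca, and the next lowest R403Q-CD mouse had 73.1 CPM. Pccb fell by 0.31 (SE 0.0708, adjusted p = 0.0102) and Bckdk, which switches the dehydrogenase off, by 0.19 (SE 0.0462, adjusted p = 0.0133). Klf15, a transcription factor known to drive this pathway in the heart, ran from 101 to 150 CPM in WT (median 131) and from 85.9 to 127 CPM in R403Q (median 105) and fell by 0.34 (SE 0.0704, adjusted p = 0.00628). The count rose to 17 without R403Q-CD mouse 2 and fell to 5 without WT-CD mouse 4.

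Fatty acid uptake and oxidation leaned the same way with few calls. Of 26 members, 25 had a negative sign and the median was -0.18, but 1 (3.85%, under the 5.26% of all genes) was called lower and 0 higher. Cpt2, the inner mitochondrial carnitine palmitoyltransferase, was the called member: it ran from 219 to 323 CPM in WT (median 285) and from 136 to 281 CPM in R403Q (median 233) and fell by 0.27 (SE 0.0833, adjusted p = 0.0361), and its call was lost in 8 of 21 fits without 1 mouse. Cpt1b, the outer membrane enzyme of muscle, had -0.13 (SE 0.0928, adjusted p = 0.375). At an unadjusted p under 0.05, 10 members were lower and 0 higher. With cage as a factor 8 members were called lower, and without R403Q-CD mouse 2 there were 4.

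Of 18 PPAR alpha targets and mitochondrial regulators, 2 were called higher, 2 lower and 14 not called (11.1% in each direction). Ppara, the nuclear receptor for fatty acids, ran from 39.7 to 54.9 CPM in WT (median 47.6) and from 17.9 to 49.7 CPM in R403Q (median 36.8) and fell by 0.40 (SE 0.113, adjusted p = 0.0254). Esrrg, an estrogen-related receptor that drives mitochondrial genes, fell by 0.25 (SE 0.0676, adjusted p = 0.0236). Ucp2, an inner membrane carrier, rose by 0.59 (SE 0.146, adjusted p = 0.0142) and Pparg, the receptor best known from adipocytes, by 0.20 (SE 0.0611, adjusted p = 0.0336). Targets of PPARα such as Pdk4 (0.02) and Angptl4 (0.12) were not called, and the median of the list was -0.07. Leaving out WT-CD mouse 1 ended the call of Ppara, leaving out WT-CD mouse 4 that of Esrrg, and leaving out WT-CD mouse 1, 2, 3 or 4 or R403Q-EMPA mouse 1 or 3 that of Pparg, which was also lost with cage as a factor and without a filter on low counts.

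In the TCA cycle 3 of 18 members (16.7%) were called lower, 17 had a negative sign, and the median was -0.14. Cs, the citrate synthase that opens the cycle, fell by 0.31 (SE 0.0865, adjusted p = 0.0243), and the succinate dehydrogenase subunits Sdhc and Sdha fell by 0.23 (SE 0.0646, adjusted p = 0.0244) and 0.28 (SE 0.0899, adjusted p = 0.0439). The call of Sdha held in 8 of 21 fits without 1 mouse and was lost in 3 of 11 other settings, and the count for the list was 1 without WT-CD mouse 3 or 4 and 7 without R403Q-CD mouse 2. Of the pyruvate dehydrogenase complex and its regulators, 2 of 14 (14.3%) were called lower: Pdp2, the phosphatase that switches the complex on, fell by 0.55 (SE 0.151, adjusted p = 0.0237) and Dlat, its acetyltransferase core, by 0.22 (SE 0.0686, adjusted p = 0.0413). The call of Pdp2 was lost without WT-CD mouse 1 or 4. That of Dlat held in 10 of 21 fits without 1 mouse. Dlat and Sdha both lost their call without a filter on low counts, with equal weight of the diets and with the length trend taken out. The kinase Pdk4, which switches it off, had 0.02 (adjusted p = 0.973).

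Of the genes of glucose uptake and glycolysis, a transporter and a hexokinase were called lower. Slc2a4, the insulin-responsive glucose transporter GLUT4, ran from 605 to 710 CPM in WT (median 643) and from 280 to 607 CPM in R403Q (median 515) and fell by 0.38 (SE 0.0918, adjusted p = 0.0127). Hk2, the hexokinase of muscle, ran from 333 to 461 CPM in WT and from 168 to 347 CPM in R403Q and fell by 0.44 (SE 0.0974, adjusted p = 0.008). In Slc2a4 1 R403Q mouse and in Hk2 3 R403Q mice lay within the range of WT. These were the 2 called of 21 glycolysis genes (9.52%), with a median of -0.09. Slc2a1, the transporter GLUT1, had 0.04 (adjusted p = 0.777) and Pkm, pyruvate kinase, -0.10 (adjusted p = 0.239).

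None of the 59 nuclear respiratory chain subunits was called by edgeR. At an unadjusted p under 0.05, 3 were higher and 7 lower, and DESeq2 called 0 higher and 3 lower. The median of 0.03 was close to that of all genes, with 40 positive and 19 negative signs and a range from -0.23 to 0.23. Atp5a1, the α subunit of ATP synthase, had -0.23 (SE 0.0852, adjusted p = 0.0804), and was called by DESeq2, with cage as a factor and without R403Q-CD mouse 2 or 3. With cage as a factor 5 members were called lower, with library size alone 3 were called higher, and over the other settings the median ran from -0.03 to 0.09. Among creatine and phosphotransfer genes, 3 of 13 were called higher and 2 lower, with a median of -0.04, or 0.01 with scaling to library size alone. Slc6a8, the creatine transporter, fell by 0.22 (SE 0.0451, adjusted p = 0.0062) and Ak4, a mitochondrial adenylate kinase, by 0.61 (SE 0.122, adjusted p = 0.0048). Gatm, the first enzyme of creatine synthesis, rose by 0.59 (SE 0.129, adjusted p = 0.00779) and Slc25a5, an ADP/ATP carrier, by 0.22 (SE 0.0549, adjusted p = 0.0158), whereas the muscle creatine kinase Ckm had -0.12 (adjusted p = 0.396).

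Insulin signalling had 6 of 18 members (33.3%) called lower and 1 (5.56%) higher. Pik3r1, the regulatory subunit of PI3-kinase, fell by 0.46 (SE 0.107, adjusted p = 0.0102), Foxo3 by 0.40 (adjusted p = 0.046), Akt2 by 0.16 (adjusted p = 0.0344), and the kinases Gsk3a and Gsk3b by 0.15 (SE 0.0418, adjusted p = 0.0254) and 0.14 (adjusted p = 0.0294), beside Slc2a4. The member that rose was the growth factor Igf1, from a range of 13.6 to 20.8 CPM in WT (median 17.7) to 19.1 to 61.3 CPM in R403Q (median 27.6), by 0.75 (SE 0.159, adjusted p = 0.00643). R403Q-CD mouse 2 had its highest value, and the fold change was similar in the CD (0.77) and the EMPA mice (0.72). The lower count was 2 without WT-CD mouse 1 or R403Q-EMPA mouse 1 and with scaling to library size alone. In the pooled edgeR model no member of the mTORC1 pathway was called of 19, against 2 higher and 5 lower at an unadjusted p under 0.05 and 1 lower by DESeq2. Sesn3, a sestrin that restrains mTORC1, had -0.22 (SE 0.0728, adjusted p = 0.0534) and Eif4ebp1, a translation repressor under its control, 0.13 (SE 0.0502, adjusted p = 0.0812). Sesn3 was called with a minimum mean of 1 CPM, with cage as a random effect, without the diet term and in 3 of 21 fits without 1 mouse, and Eif4ebp1 with library size alone and without R403Q-CD mouse 3.

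Collagen chains had the highest median of the 24 lists, 0.77, and no called member in the pooled model. Of 23 chains, 22 had a positive sign, and 14 were higher and 0 lower at an unadjusted p under 0.05, whereas edgeR called 0 and DESeq2 called 1 at an adjusted p under 0.05. In other edgeR settings, 4 chains were called without the diet term, 2 with cage as a factor, and 1 each with library size alone and with a minimum mean of 1 CPM. Col3a1, the chain of type III collagen, ran from 45.6 to 178 CPM in WT (median 65.5) and from 72.0 to 1549 CPM in R403Q (median 129) and had a value of 1.42 on the log2 scale (SE 0.479, adjusted p = 0.0547). R403Q-CD mouse 2 had 1549 CPM, R403Q-CD mouse 5 had 324 CPM and R403Q-EMPA mouse 2 had 245 CPM, and the other 8 R403Q mice lay within the range of WT. Without R403Q-CD mouse 2 the value of Col3a1 was 0.73 (adjusted p = 0.0814), whereas Col3a1 was called in 5 of 21 fits without 1 other mouse. Col14a1 had 0.74 (SE 0.268, adjusted p = 0.0694). Without R403Q-CD mouse 2 the median of the list was 0.42, with limma on the variance-stabilized values it was 0.44, and without R403Q-CD mouse 3, which had 76.8 CPM of Col3a1, 8 chains were called higher.

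Matrix proteins and profibrotic factors had 5 of 34 members (14.7%) called higher and 0 lower, with a median of 0.58, or 0.30 without R403Q-CD mouse 2. Beside Tnc and Timp1, these were the small proteoglycans Dcn and Lum and the inhibitor Timp2. Dcn ran from 747 to 1283 CPM in WT (median 1059) and from 1050 to 1726 CPM in R403Q (median 1281) and rose by 0.41 (SE 0.106, adjusted p = 0.018). Lum ran from 65.4 to 155 CPM in WT (median 111) and from 107 to 489 CPM in R403Q (median 156) and rose by 0.83 (SE 0.224, adjusted p = 0.0211), or 0.63 (adjusted p = 0.016) without R403Q-CD mouse 2. Postn, a marker of activated fibroblasts, had 1.30 (adjusted p = 0.0812), and Spp1, osteopontin, 2.49 (adjusted p = 0.0626). Without R403Q-CD mouse 3 the count was 11, and without WT-CD mouse 1 or R403Q-EMPA mouse 2 it was 3.

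Of the marker lists of the cells a ventricle can hold, the macrophage list had the largest share called: 9 of 10 (90%) were called higher, all 10 were positive, and the median was 0.62. C1qa, C1qb and C1qc, which encode the complement component C1q, rose by 0.62, 0.67 and 0.61 (adjusted p = 0.00368, 0.00386 and 0.0034), and Csf1r, the receptor for the macrophage growth factor, by 0.46 (adjusted p = 0.000849), whereas Cd163 had 0.10 (adjusted p = 0.43). Summed over the list, WT mice ran from 318 to 563 CPM (median 457) and R403Q mice from 534 to 915 CPM (median 615). In 8 of 11 R403Q mice the sum exceeded that of every WT mouse. Without R403Q-CD mouse 2 the count called was again 9, with a median of 0.54. Of the lymphocyte markers, Ptprc, which macrophages share, was the 1 called of 6.

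Fibroblast markers were called higher in 4 of 10 (Dcn, Lum, Dpt and Tcf21), with a median of 0.51, and activated fibroblast markers in 4 of 10 (Tnc, Cthrc1, Meox1 and Fap), with a median of 1.11, or 0.68 without R403Q-CD mouse 2. Without R403Q-CD mouse 3, 7 fibroblast markers were called. The sum of the fibroblast markers ran from 2296 to 3824 CPM in WT and from 2863 to 7019 CPM in R403Q, and that of the activated fibroblast markers from 107 to 337 CPM in WT and from 137 to 1431 CPM in R403Q, with the highest values in R403Q-CD mouse 2. The fibroblast list shares Dcn, Lum and collagen chains with the lists of matrix genes, so that these are the same values. Whether more fibroblasts or macrophages played a part in any of the higher lists was not tested. Endothelial markers had 3 of 10 called higher and 1 lower, with a median of 0.14, and the higher count was 1 in 11 of 21 fits without 1 mouse. Wt1, an epicardial marker, rose by 0.46 (adjusted p = 0.018) and was the 1 called of 5. Flt1, a receptor for vascular endothelial growth factor, fell by 0.28 (adjusted p = 0.0134), and Emcn, Cldn5 and Tek rose by 0.39, 0.32 and 0.16 (adjusted p = 0.0202, 0.0426 and 0.0494). Among smooth muscle and pericyte, atrial, adipocyte, erythroid, skeletal muscle and Schwann cell markers edgeR called none. At an unadjusted p under 0.05 these lists held 1, 1, 0, 0, 2 and 0 members, and DESeq2 called 1, an atrial marker. Sums of the atrial markers, from 83.9 to 358 CPM in WT and from 78.6 to 690 CPM in R403Q, varied from heart to heart in both genotypes, and 690 CPM belonged to R403Q-CD mouse 2, the mouse with the highest Nppa.

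**Figure D3:**
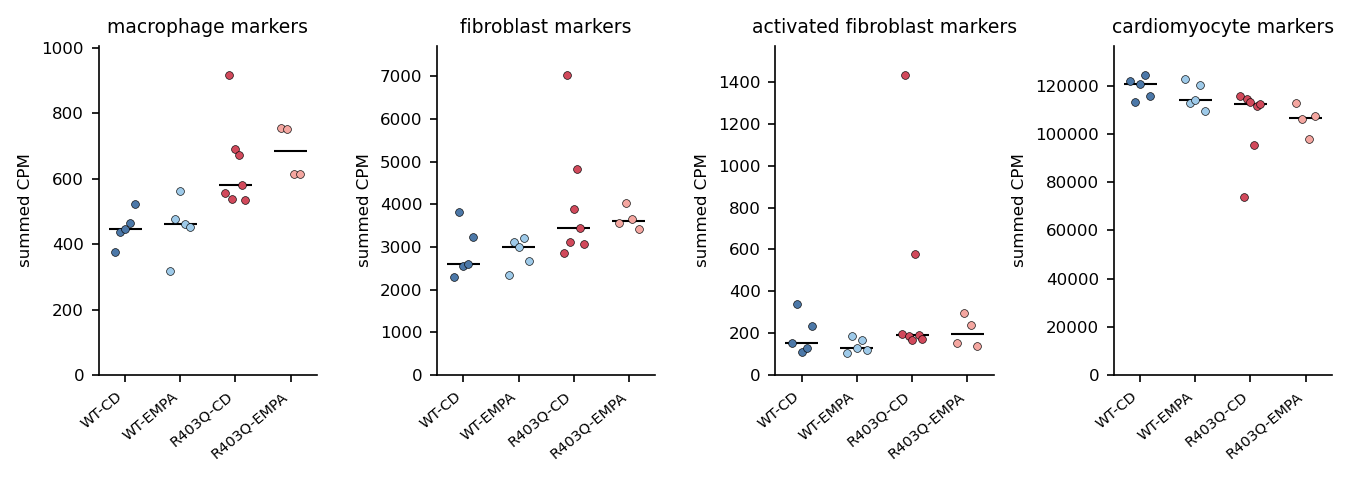
Summed CPM of 10 marker genes of macrophages, fibroblasts, activated fibroblasts and cardiomyocytes in each mouse, by group, with linear axes from 0; lines are group medians. Macrophage sums of R403Q mice lie between 534 and 915 CPM, against 318 to 563 CPM in WT, and R403Q-CD mouse 2 has the highest sum of the first 3 panels and the lowest cardiomyocyte sum (73863 CPM).

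Some antioxidant defence genes rose. Of 20 members, 7 (35%) were called higher and 0 lower, with a median of 0.18. Gpx1, a glutathione peroxidase, ran from 56.9 to 85.8 CPM in WT (median 80.0) and from 86.1 to 138 CPM in R403Q (median 103), without overlap, and rose by 0.41 (SE 0.0776, adjusted p = 0.00341). Gpx4, which reduces lipid peroxides, rose by 0.26 (SE 0.0606, adjusted p = 0.0103) and Prdx1, a peroxiredoxin, by 0.29 (SE 0.0612, adjusted p = 0.00643). Nqo1, a quinone reductase, rose by 0.32 (SE 0.0846, adjusted p = 0.0192), Gclc, which limits the synthesis of glutathione, by 0.22 (adjusted p = 0.0238), Srxn1, which reactivates peroxiredoxins, by 0.49 (adjusted p = 0.0213) and the metallothionein Mt1 by 0.27 (adjusted p = 0.0382). Among the members not called, Sod2 had -0.18 (adjusted p = 0.265), Prdx3 -0.02 (adjusted p = 0.903) and Txnrd2 -0.16 (adjusted p = 0.069). The count stayed between 6 and 8 in all fits without 1 mouse.

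The members of the integrated stress response that were called are enzymes of amino acid synthesis and folate metabolism. Asns, asparagine synthetase, ran from 6.88 to 9.22 CPM in WT (median 8.4) and from 8.62 to 15.2 CPM in R403Q (median 11.1) and rose by 0.42 (SE 0.089, adjusted p = 0.00643). Phgdh and Psat1, the first enzymes of serine synthesis, rose by 0.78 (SE 0.235, adjusted p = 0.0343) and 0.54 (SE 0.159, adjusted p = 0.0319). Shmt2, the mitochondrial enzyme that takes serine into folate metabolism, fell by 0.22 (SE 0.0586, adjusted p = 0.0209). The transcription factors and the alarm genes of the response were not called: Atf4 had 0.01 (adjusted p = 0.892), Ddit3 -0.03 (adjusted p = 0.874), Trib3 -0.02 (adjusted p = 0.92) and Gdf15 0.17 (adjusted p = 0.703). Of 13 tested members 3 were called higher and 1 lower, with a median of 0.06. Without 1 of 6 mice, WT-CD mouse 1, 3 or 4, WT-EMPA mouse 1, R403Q-CD mouse 5 or R403Q-EMPA mouse 1, Asns was left as the 1 higher member called. The call of Psat1 was also lost with cage as a factor and that of Phgdh without a filter on low counts, and limma on the variance-stabilized values gave Phgdh 0.31.

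Asns is known as a target of ATF4, which binds an amino acid response element. The windows of 250 bases before the start of Asns and Phgdh are shown, from RefSeq on GRCm38.p6, because both rose while Atf4 itself was not called. No window of Psat1, which rose too, is shown, because none was found within 1000 bases of its annotated start. Asns is at chr6:7693210-7693459 and Phgdh at chr3:98339970-98340219, both on the minus strand. Capitals mark matches on either strand to TGATGNAA, a core of that element.
Asns: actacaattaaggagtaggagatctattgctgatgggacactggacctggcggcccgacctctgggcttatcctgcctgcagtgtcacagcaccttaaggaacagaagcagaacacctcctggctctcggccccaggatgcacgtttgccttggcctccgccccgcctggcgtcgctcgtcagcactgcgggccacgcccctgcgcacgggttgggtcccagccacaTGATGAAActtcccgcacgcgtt
Phgdh: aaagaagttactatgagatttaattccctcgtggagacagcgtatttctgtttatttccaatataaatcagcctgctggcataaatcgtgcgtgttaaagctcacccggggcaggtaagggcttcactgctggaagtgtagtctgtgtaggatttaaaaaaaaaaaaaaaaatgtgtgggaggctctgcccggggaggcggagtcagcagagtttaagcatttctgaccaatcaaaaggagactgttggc
The window of Asns held 1 match, which began 23 bases before the start, and that of Phgdh held 0. Of 10486 tested genes with a window, 193 (1.84%) held a match, as did 18 of 746 higher genes (2.41%) and 17 of 592 lower genes (2.87%). The shares are a description of these letters in these windows.

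Other stress lists held few calls. Bag3, a chaperone partner needed for Z-disc upkeep, fell by 0.24 (SE 0.0617, adjusted p = 0.016) and was the 1 called of 16 chaperones (6.25%), whose median was 0.01, or -0.01 to 0.08 in other settings. None of 15 muscle ubiquitin ligases and autophagy genes was called by edgeR or by DESeq2, and 1 was higher and 3 lower at an unadjusted p under 0.05. Asb15 had -0.32 (SE 0.125, adjusted p = 0.0894) and Asb2 -0.20 (SE 0.0834, adjusted p = 0.105), and both were called without R403Q-CD mouse 2, with -0.25 and -0.16. Of 19 circadian clock genes, the output factor Hlf fell by 0.43 (SE 0.117, adjusted p = 0.023) and the repressor Cry2 by 0.19 (SE 0.0599, adjusted p = 0.0455). The call of Hlf was lost without the diet term (adjusted p = 0.0846). Cry2 was called in 4 of 21 fits without 1 mouse and in 6 of 11 other settings, and the core genes Arntl (0.32), Per2 (-0.11) and Nr1d1 (-0.30) were not called.

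The diets held different mice, so each shows how the pooled values arise. Fitted alone, the 12 CD mice gave 28 called genes of 16538 (0.169%), and the 9 EMPA mice gave 123 of 16635 (0.739%). Without 1 mouse, the CD fit gave between 0 (without WT-CD mouse 3) and 126 genes (without R403Q-CD mouse 2) and the EMPA fit between 22 (without R403Q-EMPA mouse 3) and 224 genes (without WT-EMPA mouse 3). DESeq2 called 545 and 930. Of the 2144 genes called with both diets together, 2008 were called in neither diet alone, and 6 were called in each: Gm35330, Sept6, Epdr1, Sec14l5, 2610028H24Rik and Rp1. Of the 2105 pooled calls that were tested in both diets, 2104 had the same sign in each. This agreement follows in part from the pooling itself. The lookup of genes called in one diet among the mice of the other does not.

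Of the 28 genes called in CD mice, 27 (96.4%) had the same sign in EMPA mice, and 22 (78.6%) had the same sign with an unadjusted p under 0.05. Over all 16320 genes tested in both diets these shares were 72% and 17.4%. The genes of CD mice shrank when looked up: the median size of the change was 1.06 in CD and 0.55 in EMPA mice. Of the 123 genes called in EMPA mice, 122 (99.2%) had the same sign in CD mice, and 93 (75.6%, against 16.6% of all genes) had also an unadjusted p under 0.05, with median sizes of 0.59 and 0.46. With DESeq2, which called more genes in each diet, these shares were 62.1% of 541 genes of CD mice and 58% of 930 genes of EMPA mice. Trabd2b, Cacna1g, Adora1, Hcn4 and Klf15 were among those called in CD mice, with log2 fold changes of -0.64, -0.94, -0.49, -1.15 and -0.39 there and -0.53, -0.65, -0.29, -0.51 and -0.26 in EMPA mice. The 6 genes of CD mice that did not meet this in EMPA mice were Crip3, a LIM-domain protein, with 2.39 in CD and -0.18 in EMPA mice, Snrpn, a splicing protein, with -0.50 and -0.07, Col6a5 with 2.29 and 0.39, Sh3rf2 with -0.53 and -0.17, Cytip with 1.499 and 0.63, and Gm7628 with -1.59 and -0.55. Crip3 was the 1 of them with the opposite sign.

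**Figure D4:**
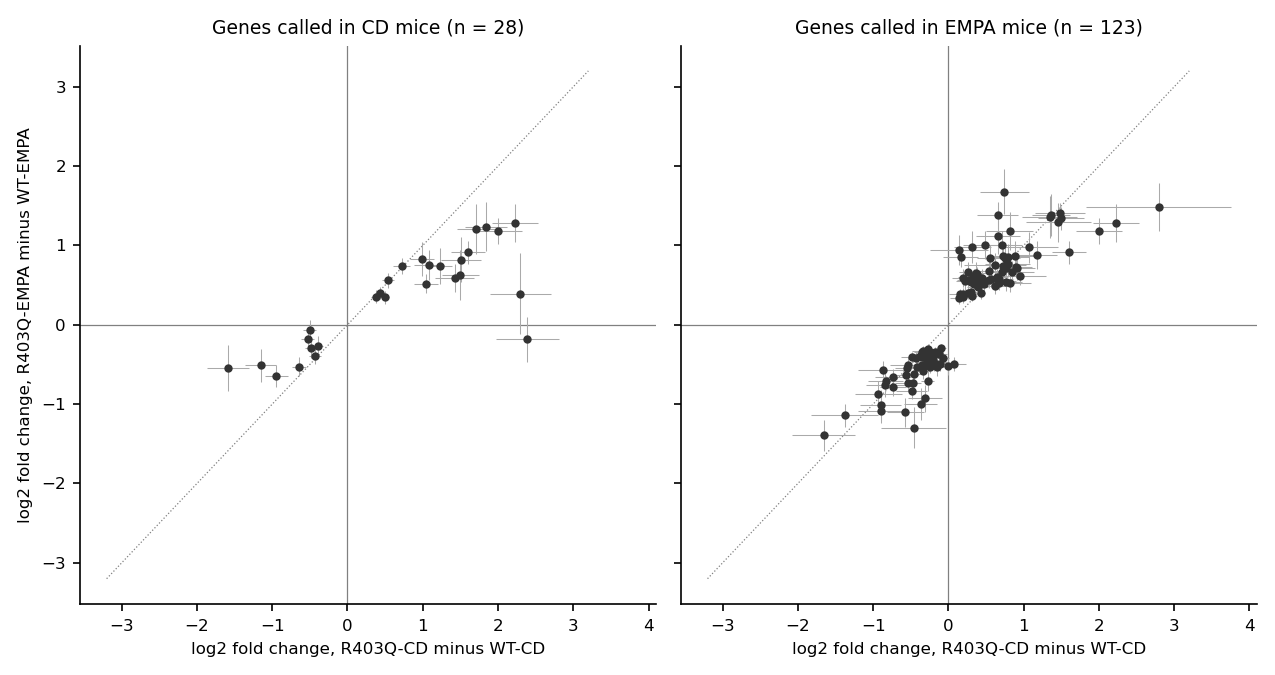
Log2 fold change of R403Q over WT in CD mice (horizontal axis) and in EMPA mice (vertical axis) with SE, for the 28 genes called in CD mice alone and the 123 called in EMPA mice alone; the dotted line marks equal values. All but 1 of the genes in each panel lie in the quadrants of equal sign, and 6 genes are in both panels.

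The value of Nppa was 2.73 in CD and 0.42 in EMPA mice, and that of Nppb was 1.19 and -0.01. R403Q-CD mouse 2 is among the CD mice, and without it the CD values were 1.81 and 0.78. The interaction term, which tests whether the genotype effect differs between diets, was called in 0 of 17309 genes (0%) by edgeR, and in 0 by DESeq2. An unadjusted p under 0.05 was found for 567 genes (3.28%), and the smallest adjusted p was 0.537. The smallest p belonged to Gm16284, Crip3 and Noc4l, whose log2 fold changes in CD and EMPA mice were 1.22 and -0.77, 2.39 and -0.18, and -0.15 and 0.25. Of these, Crip3 was called in the pooled fit (1.27, SE 0.386, adjusted p = 0.0361), and its call was lost without any 1 WT-CD mouse or R403Q-CD mouse 5. The diet term of the pooled fit was called in 571 genes, of which 115 were also called for genotype.

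Higher and lower genes differed in the length of the transcript. The exonic length had a median of 3798 bases over the tested genes, 2762 in the higher and 5884 in the lower genes. Among protein-coding genes the higher calls numbered 356, 261, 175, 147 and 86 in 5 classes of about equal size from the shortest to the longest, and the lower calls 60, 111, 161, 211 and 299. Lower genes were also more abundant, with a median level of 51.8 CPM against 11.5 CPM in the higher genes. When a smooth trend with exonic length was taken out of each mouse, 1209 genes were called higher and 723 lower, and 77.7% of the 2144 calls were shared. The part of RNA quality or library preparation in this pattern was not tested.

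**Figure D5:**
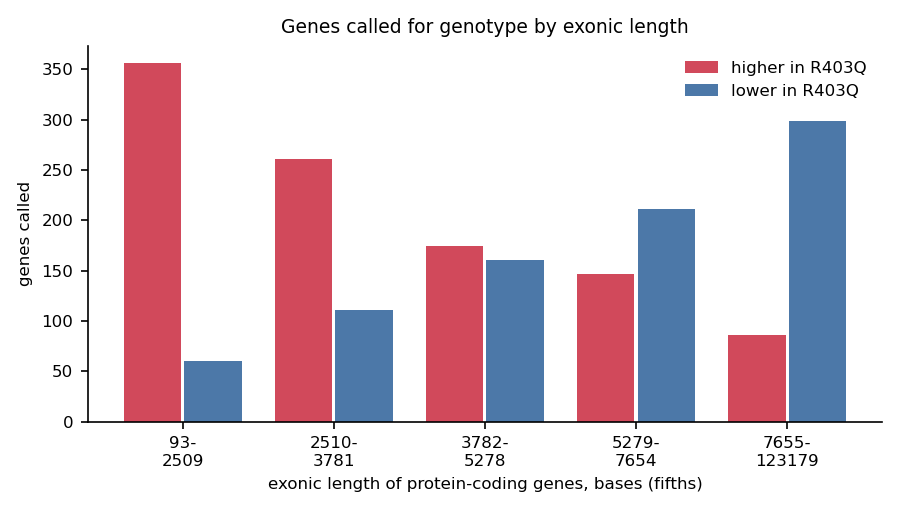
Number of protein-coding genes called higher (red) and lower (blue) in R403Q, in 5 classes of exonic length in bases. Higher calls go from 356 to 86 and lower calls from 60 to 299 between the shortest and the longest class.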

How the data were processed

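RNA of the left ventricle was measured in 21 mice, 1 library per mouse. The authors selected poly(A) RNA, sequenced pairs, aligned them to mm10 with STAR 2.6.0c after FastQC 0.11.7, and deposited counts of uniquely aligned pairs per gene from featureCounts (Subread 1.6.2). The deposited log2 values were variance-stabilized by the authors with DESeq2 1.32.0 and served here for 1 alternative only. From the counts, edgeR 4.0.16 (R 4.3.3) fitted genotype and diet with TMM scaling and quasi-likelihood tests after filterByExpr (minimum count 10). P-values were adjusted over all tested genes by the Benjamini-Hochberg method. CPM were scaled by TMM, and each log2 fold change is on the scale of the fit. Alternatives used DESeq2 1.42.0, limma 3.58.1, other scaling and filters, cage terms, equal weight of the diets, and leaving out each mouse. An offset for exonic length was added after the data were seen.

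Symbols and positions came from GENCODE vM21. Members and gene lists were chosen with earlier results of these data known. The rule for named genes took the 10 higher and 10 lower with the smallest p and no provisional symbol (Gm and digits, Rik or clone names), the 5 higher and 5 lower with the largest change at a mean of 1 CPM, up to 4 called members per list (2 where none was called), 3 by the interaction, and Myh6, Nppa, Nppb, Myh7, Acta1, Ankrd1 and Cpt1b. Any other gene was named after its values were seen. Some genes that this rule names are not reported here, though they stay in the counts. Pairs that fit several copies of a gene were not counted, which touches pseudogenes and near-identical genes. On simulated data, edgeR recovered 89% of 200 genes changed 2-fold and 65.5% of 200 changed 1.5-fold, with 4.81% and 7.09% of calls false. It called 0 of 17148 genes where none was changed. The simulated counts were drawn for each gene independently, without effects of diet or cage and without a mouse like R403Q-CD mouse 2. These shares therefore do not give the error rate in the real data.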

Additional observations from a re-analysis of the deposited data

Results flagged for a closer look

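Within the 4 groups of mice, each named gene was tested for a lone highest or lowest mouse by the gap to its neighbour as a share of the group's range, both taken on log2 CPM, while the values are given here as CPM. Of 404 tests in 101 genes, 36 in 33 genes passed Dixon's limit, and chance flags about 1 in 20. R403Q-CD mouse 2 accounted for 9 of them. R403Q-CD mouse 2 lay below the others in Myh6 (17530 CPM), Cpt2 (136 CPM), Pcca (48.1 CPM), Asb15 (42.5 CPM), Asb2 (233 CPM), Cpt1b (5.98 CPM), Lgi1 (0.248 CPM) and Mylk4 (12 CPM) and above the others in Gm16284 (1.12 CPM). R403Q-EMPA mouse 2 lay below the others in Ftl1 (154 CPM) and Sorcs2 (11.7 CPM) and above the others in Cxadr (67.4 CPM) and Timp1 (13.5 CPM). WT-EMPA mouse 1 lay below the others in Psat1 (2.55 CPM) and above the others in Adora1 (28.3 CPM), Pdp2 (49.3 CPM) and Lgi1 (7.58 CPM). R403Q-CD mouse 3 lay above the others in Epdr1 (30.5 CPM), Kcnj12 (30.5 CPM) and Bag3 (335 CPM). R403Q-CD mouse 4 lay above the others in Itgb1bp1 (57.9 CPM) and Prdx1 (435 CPM). R403Q-EMPA mouse 1 lay below the others in Hif3a (11.1 CPM) and above the others in Asb2 (441 CPM). WT-CD mouse 2 lay below the others in Sdha (1740 CPM) and Pccb (124 CPM). WT-EMPA mouse 4 lay above the others in Ak4 (47.5 CPM) and Gatm (6.93 CPM). R403Q-CD mouse 1 lay below the others in Npr2 (59 CPM). R403Q-CD mouse 5 lay below the others in Slc8a1 (409 CPM). R403Q-EMPA mouse 3 lay below the others in Lgi1 (1.34 CPM). R403Q-EMPA mouse 4 lay above the others in Klf15 (127 CPM). WT-CD mouse 3 lay below the others in Myh7 (2627 CPM). WT-CD mouse 4 lay above the others in Kcnk3 (314 CPM). WT-EMPA mouse 3 lay above the others in Crip3 (0.863 CPM). WT-EMPA mouse 5 lay above the others in Chrm2 (231 CPM).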

How the results depend on the processing

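The pooled count of 2144 genes was 2882 with DESeq2, 2149 with RLE size factors, 2631 with library size alone, 1517 without a filter, 2216 at a mean of 1 CPM or more, 2075 with limma on the deposited log2 values, 2111 with cage as a factor (71.8% of the 2144 shared), 2339 with cage as a random effect (correlation within cage 0.0787), 2315 without diet, 1883 with equal weight of the diets and 1932 with the added length offset. Library size alone gave 2139 higher and 492 lower genes, and 44 and 12 without overlap. No filter left 812 higher. DESeq2 called 545 genes in CD mice alone and 930 in EMPA mice alone. Without 1 mouse the pooled count ran from 1258 to 3062, with 717 to 1682 higher and 541 to 1380 lower, the CD count from 0 to 126, the EMPA count from 22 to 224 and the interaction count from 0 to 0. The lowest pooled count came without WT-CD mouse 1 and the highest without R403Q-CD mouse 3. No tested gene that had been called changed sign in these settings. Among named genes, 29 values of other settings and 102 of the fits without 1 mouse lost their call. The causes were not tested. No paired analysis by replicate number was possible because these numbers were given in accession order and pair no mice. Most cages held mice of both genotypes, and cage was fitted instead as above.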

Other observations

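Cytosolic ribosomal proteins, a set chosen after the results were seen, had 32 of 83 tested members (38.6%) called higher and 0 lower in R403Q, beside 7.13% higher and 5.26% lower of all tested genes, with a median log2 fold change of 0.24 and a median exonic length of 1770 bases. Of 1310 processed pseudogenes tested, 128 (9.77%) were called higher and 12 (0.916%) lower, and many copies resemble expressed genes, so that their counts are uncertain. Among 502 lincRNAs, 27 (5.38%) were called higher and 21 (4.18%) lower, both shares under those of all tested genes. Gm35330, a lincRNA, rose by 0.73 (adjusted p = 2.06e-05) without overlap between the genotypes. Plxnb1, a semaphorin receptor, ran from 60.2 to 74.1 CPM in WT and from 13.0 to 49.5 CPM in R403Q and fell by 0.78 (SE 0.143, adjusted p = 0.00322), also without overlap. Ghr, the growth hormone receptor, ran from 187 to 205 CPM in WT and from 140 to 185 CPM in R403Q and fell by 0.24 (SE 0.0445, adjusted p = 0.00326).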
